A study of Mus musculus with 8 samples.

Results

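Glycolysis and pentose phosphate enzymes are described here through 8 genes named as a set for these neutrophils, namely Adpgk, Aldoa, Gapdh, Pgk1, Pgam1, Pkm, Ldha and Tkt. All 8 were found by symbol among the 10970 genes of the table, and all 8 passed the filter on low counts that left 8478 genes for testing. The transcripts were counted by SCRB-seq, a plate-based method that tags each captured RNA molecule near its 3′ end with a unique molecular identifier (UMI), in single neutrophils enriched from peripheral blood (PB) or bone marrow (BM). The animals were C57BL/6 J mice, male and 7 to 12 weeks old, that had received an intraperitoneal injection of PBS or of lipopolysaccharide (LPS, a bacterial cell wall component) at 0.5 mg/kg. The labels place PBS-primed samples at 0 h and LPS-primed samples at 4 h, whereas the study's methods describe cell preparation 4 h after either injection. The labels name no transgene or deleted gene. The neutrophils were enriched by removing other cells with antibody-coated beads and then picked by mouth pipette, so a few other blood cells could be among them.

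Each of the 4 groups (PBS-primed PB, LPS-primed PB, PBS-primed BM and LPS-primed BM) had 2 labelled samples of 83 to 92 cells, all of batch 7, for 711 cells in all. A further 710 cells on 9 plates of batch 6 carried the group but no sample name, so their values are given per plate, without SD, beside those of the labelled samples. The labels do not say whether the 2 samples of a group came from separate mice, so p-values measure only the spread between these samples, which may be technical. The labelled samples held 3240559 to 8361677 UMIs, with medians of 32295 to 76133 UMIs per cell. All 9 neutrophil markers (S100a8, S100a9, Ly6g, Csf3r, Retnlg, Mmp8, Mmp9, Camp and Ltf) were present in every group and summed to 14.2 to 15.1% of UMIs in blood after PBS and 26.1 to 28.8% after LPS, and to 34.2 to 36.1% in marrow after PBS and 31.1 to 31.8% after LPS. Levels are CPM, the UMIs of a gene scaled to the same total in every sample, and since a sum over cells is bulk in nature, fewer cells with a transcript and less transcript per cell cannot be told apart from the sums alone.

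Glycolysis converts glucose to pyruvate with a gain of ATP and NADH, and neutrophils draw most of their ATP from it. The pentose phosphate pathway branches off after the first phosphorylation of glucose, and its oxidative steps make the NADPH that feeds the NADPH oxidase of the respiratory burst and the upkeep of glutathione. Transketolase joins both pathways again by passing carbon from pentose phosphates back to glycolytic intermediates, and lactate dehydrogenase restores the NAD+ that glycolysis needs. In mm9, the build of the authors' alignment, Adpgk lies at chr9:59139379-59166197 and Pkm at chr9:59504383-59527182, both on the plus strand. Aldoa lies at chr7:133938748-133944265 (minus strand), Ldha at chr7:54096845-54110997 (plus), Gapdh at chr6:125111871-125116485 (minus), Pgk1 at chrX:103382439-103399038 (plus), Pgam1 at chr19:41986361-41993154 (plus) and Tkt at chr14:31361545-31387908 (plus).

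The 250 bases upstream of the RefSeq start sites of Adpgk and Tkt (build GRCm38.p6) are shown because these were the members that passed the test between PBS-primed PB and PBS-primed BM neutrophils. Capitals mark matches on either strand to ACGTG, a form of the core of the hypoxia response element, and to GGGCGG, the GC box bound by Sp1. The Adpgk stretch is chr9:59291322-59291571 and the Tkt stretch chr14:30548881-30549130, both on the plus strand and 5′ to 3′.
Adpgk: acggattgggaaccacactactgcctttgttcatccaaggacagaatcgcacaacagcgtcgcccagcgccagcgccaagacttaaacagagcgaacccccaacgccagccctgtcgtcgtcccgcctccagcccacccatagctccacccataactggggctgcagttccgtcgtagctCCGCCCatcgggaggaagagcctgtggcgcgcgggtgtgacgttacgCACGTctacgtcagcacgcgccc
Tkt: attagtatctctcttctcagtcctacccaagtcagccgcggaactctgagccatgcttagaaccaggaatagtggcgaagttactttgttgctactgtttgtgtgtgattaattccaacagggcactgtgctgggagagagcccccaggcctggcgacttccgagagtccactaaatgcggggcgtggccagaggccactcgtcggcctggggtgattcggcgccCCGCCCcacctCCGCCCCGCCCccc
The Adpgk stretch held 1 ACGTG match, on the reverse strand 23 bases before the start, and 1 GC box at 70 bases. The Tkt stretch held no ACGTG match and 3 GC boxes at 25, 14 and 9 bases before the start, the last of which overlap. Of 32851 mouse start sites, 16.6% had ACGTG and 32.7% had GGGCGG in a window of the same length. Counted over all RefSeq start sites of the 8 genes, 7 of 12 windows held ACGTG, with 5 matches in a Ldha window and none for Gapdh and Tkt, and windows of the same gene can overlap. The Ldha matches lay 145, 144, 48, 47 and 34 bases before the start, and those 1 base apart are overlapping matches on opposite strands. These matches are descriptions of the letters only.

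The 8 genes together took a smaller share of the transcripts in blood than in marrow, with most of the gap in Adpgk and Tkt. Their summed share of UMIs was 0.303 and 0.318% in blood after PBS and 0.225 and 0.232% after LPS, against 0.512 and 0.601% in marrow after PBS and 0.518 and 0.530% after LPS. PB and BM samples did not overlap, and the LPS-primed PB samples lay below the PBS-primed ones. The batch 6 plates gave 0.170 to 0.314% in PB and 0.464 to 0.583% in BM. The other 6 genes alone took 0.287 and 0.293% in PBS-primed PB and 0.315 and 0.380% in PBS-primed BM samples. On the batch 6 plates they overlapped between these PBS-primed groups, with 0.272 and 0.300% against 0.276 to 0.378%. After LPS the 6 genes took 0.207 and 0.199% in PB and 0.314 and 0.324% in BM samples. The LPS-primed batch 6 plates gave 0.196 and 0.141% in PB and 0.367% in BM, so neither batch overlapped after LPS. Cells thinned to 5000 UMIs held UMIs of 3 of the 8 genes in the median cell of every PB sample, and of 4 or 5 in every BM sample.

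Whether circulating neutrophils change these enzymes upon LPS was tested with edgeR's quasi-likelihood test on UMI sums, scaled by TMM, with Benjamini-Hochberg adjustment over all genes. LPS-primed against PBS-primed PB neutrophils differed in 1 of the 8 genes, Adpgk, where 3.94% of the 8478 tested genes passed (3.47% in the higher direction, that of Adpgk). LPS-primed against PBS-primed BM neutrophils differed in none of the 8 by edgeR or DESeq2, where 0.0708% of all genes passed by edgeR. At an unadjusted p under 0.05, 1 of the 8 (Aldoa) and 684 genes in all stood out in BM, and DESeq2 called 196 genes there. The difference between both LPS effects passed for Adpgk alone among the 8, beside 1.5% of all genes. PBS-primed PB against PBS-primed BM neutrophils differed in 2 of the 8, Adpgk and Tkt, both lower in PB, beside 2.61% of all genes in either direction and 1.43% in the lower one. The PB contrasts share the PBS-primed PB samples and are not independent of each other.

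The median fitted log2 difference of the 8 genes was 0.63 upon LPS in PB beside -0.11 over all genes, and -0.34 in BM beside 0.00. It was 0.89 for the difference of the effects beside -0.17, and -1.48 for PBS-primed PB against BM beside 0.15. These small PB values depend on the scaling, because TMM factors were 1.35 and 1.38 in PBS-primed PB and 0.748 and 0.694 in LPS-primed PB samples. With library size alone, the median over all genes upon LPS in PB was -1.02 and that of the 8 genes -0.28, with 6 of the 8 lower. For PBS-primed PB against BM the median under library size alone was -0.95 beside 0.67 over all genes. There Adpgk and Tkt passed, whereas Pkm was -0.01 (adjusted p = 0.996) and Aldoa -0.12 (adjusted p = 0.833). A direction below the threshold is therefore given as a value only.

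**Figure D1:**
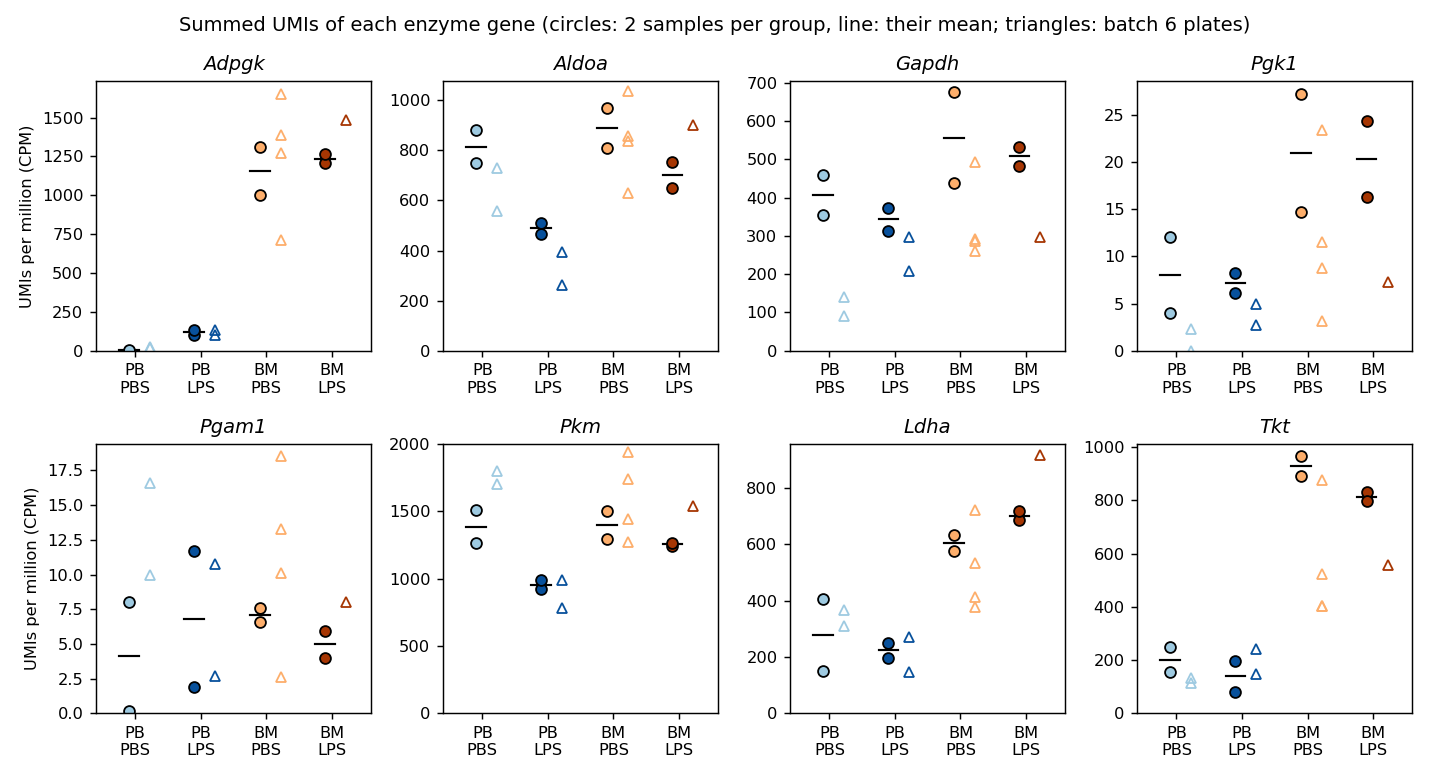
CPM of each enzyme gene (vertical axis) by group, with 1 circle per labelled sample, a line at the mean of the 2 samples and 1 triangle per batch 6 plate. Adpgk was near 0 in PBS-primed PB, reached 98.2 and 136 CPM in LPS-primed PB and was 711 CPM or more in every BM sample and plate, while Tkt was lower in every PB sample and plate than in any BM one.

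Adpgk encodes the ADP-dependent glucokinase, an enzyme of the endoplasmic reticulum that phosphorylates glucose with ADP in place of ATP. It had 0.992 and 4.63 CPM in blood after PBS (5 and 15 UMIs), 98.2 and 136 after LPS, and 1004 and 1314 in marrow after PBS against 1208 and 1265 after LPS. Both LPS-primed PB samples were above both PBS-primed PB samples, all PB samples were below all BM samples, and both BM groups overlapped. The means were 2.81 ± 2.57 and 117.3 ± 27.0 CPM in PBS- and LPS-primed PB, and 1159 ± 219 and 1236 ± 40.2 CPM in PBS- and LPS-primed BM (SD, n = 2 each). The rank of the groups was thus BM above LPS-primed PB above PBS-primed PB.

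Upon LPS, Adpgk rose in PB by 6.39 ± 0.57 on the log2 scale (SE, 83.8-fold, edgeR adjusted p = 0.000101). In BM the value was -0.10 ± 0.43 (adjusted p = 1). The difference between both effects was 6.49 ± 0.70 (adjusted p = 0.00069). In PBS-primed neutrophils Adpgk was 628-fold lower in PB than in BM (log2 difference -9.29 ± 0.64, adjusted p = 1.17e-05). These folds rest on the 5 and 15 UMIs of the PBS-primed PB samples, and batch 6 gave a smaller contrast. Its PBS-primed PB plates had 22.7 and 15.4 CPM and its LPS-primed PB plates 103 and 136 CPM, whereas its BM plates spanned 711 to 1653 CPM. The log2 ratio of pooled CPM upon LPS in PB was 2.65 in batch 6 and 5.38 in batch 7, so the direction held in each batch and the size did not.

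**Figure D2:**
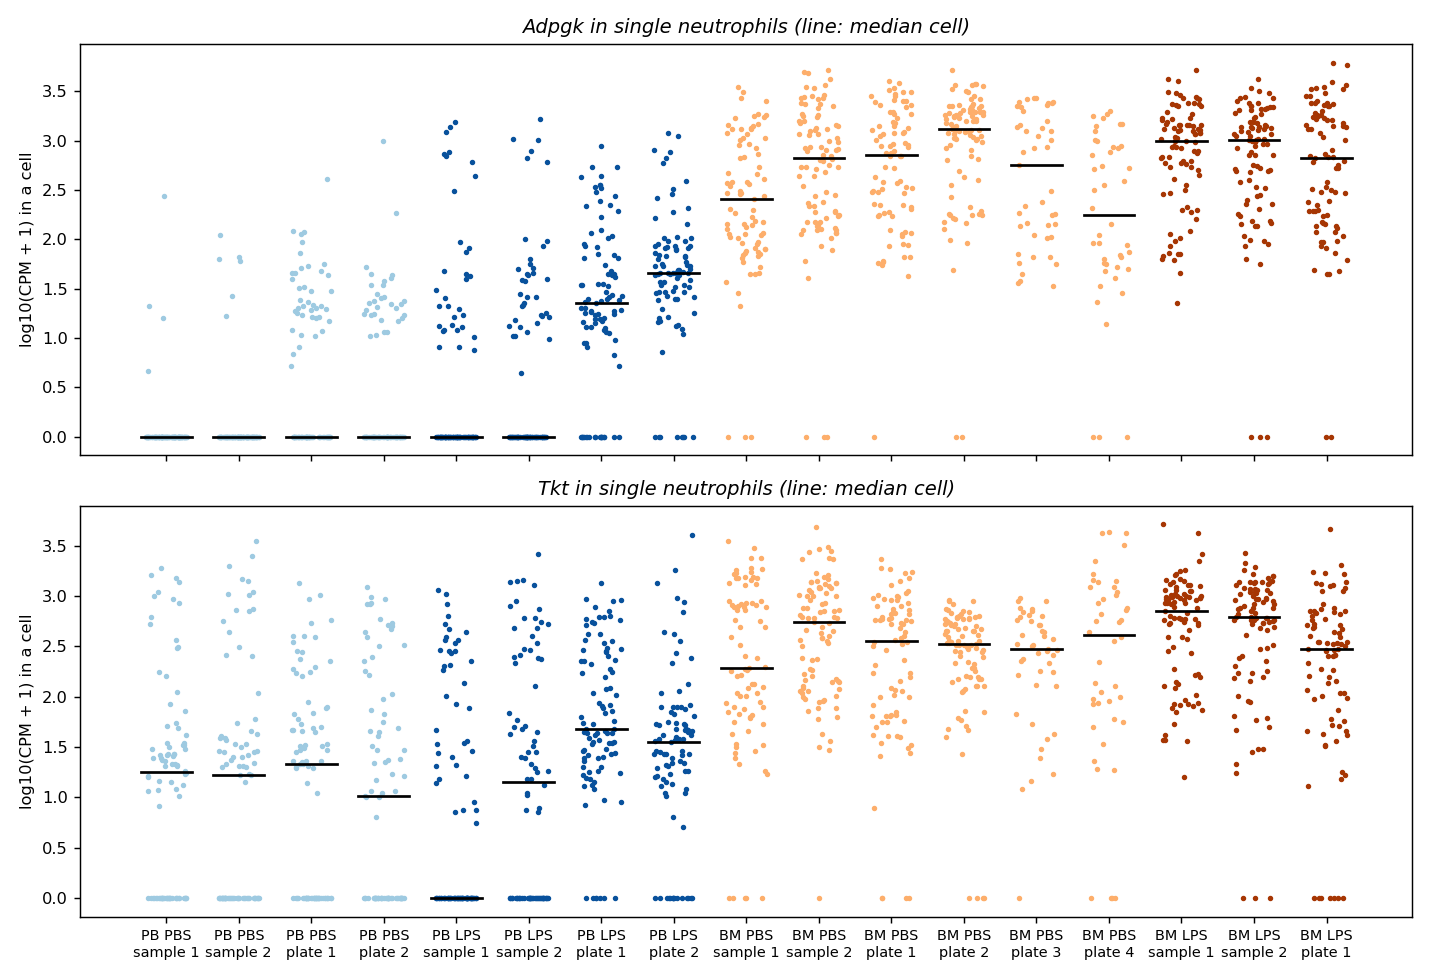
Levels in single cells, as log10(CPM + 1) on the vertical axis, for Adpgk and Tkt by labelled sample and batch 6 plate, with 1 point per cell and a line at the median cell. In the labelled LPS-primed PB samples most cells had no Adpgk UMI, and 7 of 91 and 6 of 86 cells exceeded 500 CPM. On the LPS-primed PB plates of batch 6, 76 of 95 and 83 of 91 cells had an Adpgk UMI.

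In the labelled LPS-primed PB samples the rise of Adpgk was carried mostly by few cells. Only 7 of 91 and 6 of 86 cells exceeded 500 CPM, and they held 84.6 and 92.5% of the Adpgk UMIs of their samples. No PBS-primed PB cell of the labelled samples reached this level. In BM, 28 of 83 and 54 of 92 PBS-primed cells and 66 of 91 and 60 of 92 LPS-primed cells did. They held 94.3 to 97.0% of the Adpgk UMIs of their samples. The remaining LPS-primed PB cells had 16.9 and 11.5 CPM, still above the 0.992 and 4.63 CPM of all PBS-primed PB cells. Without the 2 highest cells of each sample, LPS-primed PB kept 52.6 and 48.5 CPM. On the batch 6 plates of LPS-primed PB, 3 of 95 and 6 of 91 cells exceeded 500 CPM and the other cells had 77.4 and 64.4 CPM, so there the rise was spread over more cells.

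The same LPS-primed PB samples had more transcript of the granule genes Ltf and Camp. Ltf, the lactoferrin gene of secondary granules, had 4.96 and 8.95 CPM in blood after PBS, 1409 and 2038 after LPS, and 8118 and 10590.5 in marrow after PBS against 7950.3 and 10091 after LPS. Camp, the cathelicidin gene, had 34.3 and 35.2 CPM in PBS-primed PB and 3480.1 and 3621 CPM in LPS-primed PB samples. Retnlg, another neutrophil marker, had 10849 and 12343 CPM in PBS-primed PB and 24736 and 27592 CPM in LPS-primed PB samples. Within the LPS-primed PB samples, the correlation of Adpgk over cells was 0.369 and 0.274 with Ltf and 0.342 and 0.251 with Camp. It was 0.068 and 0.180 with Ly6g and -0.013 and -0.058 with Retnlg. On the batch 6 plates of this group it was 0.156 and 0.361 with Ltf and -0.080 and -0.037 with Retnlg. In the BM samples the correlation of Adpgk with Ltf ran from 0.146 to 0.320. Such values describe cells that share a library and depth. The 5 cycling precursor markers summed to 40.9 to 54.6 CPM in PBS-primed PB and 3.74 to 10.6 CPM in LPS-primed PB samples. They summed to 22.4 to 27.4 CPM in PBS-primed BM and 71.6 to 128 CPM in LPS-primed BM samples. Among them Elane, Mpo and Prtn3 were at 0 in both PB groups. Markers of platelets, lymphocytes and hepatocytes moved the other way from Adpgk. All 5 platelet markers were found in both PB groups and summed to 295 to 462 CPM in PBS-primed PB, 73.6 to 128 in LPS-primed PB and at most 1.16 in BM samples. Of 4 T or NK cell markers, Cd3e and Gzma were at 0 in LPS-primed PB. They summed to 141 to 194 CPM and the 3 B cell markers to 55.7 to 107 CPM in PBS-primed PB and to at most 0.51 CPM in LPS-primed PB. The 5 hepatocyte markers summed to 1464 to 2247 CPM in PBS-primed PB, 828 to 862.5 in LPS-primed PB and 1.79 to 15.9 in BM, but to at most 1.08 CPM on the batch 6 PB plates, where Adpgk was also higher after LPS. The 5 monocyte or macrophage markers summed to 459 to 655 CPM in PBS-primed PB, 913 to 1040 in LPS-primed PB and 849 to 1064 in BM, with Ccr2 at 0 in LPS-primed PB. Cells with over 500 CPM of B, T or NK, or platelet markers numbered 17 of 90 and 14 of 86 in PBS-primed PB and 6 of 91 and 3 of 86 in LPS-primed PB. On the batch 6 plates such cells were more frequent after PBS, with 53 of 88 and 36 of 84 against 0 of 95 and 5 of 91 after LPS, and platelet markers summed to 1177 to 2827 CPM after PBS and 1.66 to 49.6 CPM after LPS. In the labelled samples without these cells, the rise of Adpgk in PB was 6.09 ± 0.65 (adjusted p = 0.000342) and its shortfall against BM -9.09 (adjusted p = 6.1e-05). In the same refit Tkt between PBS-primed PB and BM was -2.69 (adjusted p = 0.00552) and Ldha -1.48 (adjusted p = 0.0971). The part of monocyte and hepatocyte markers in these results was not tested. The median deposited spike-in ratio per cell was 0.634 to 0.664 in PBS-primed PB, 0.498 to 0.520 in LPS-primed PB and 0.416 to 0.483 in BM, and the part of this ratio and of granule gene levels in the result was not tested.

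The enzymes from aldolase to pyruvate kinase passed in no comparison among the labelled samples by edgeR, and DESeq2 called Gapdh alone among them, between PBS-primed PB and BM. Aldoa encodes the aldolase that splits fructose bisphosphate into triose phosphates. It had 751 and 880 CPM in blood after PBS, 512 and 466 after LPS, and 810 and 969 in marrow after PBS against 649 and 754 after LPS. On the CPM scale LPS-primed samples were below PBS-primed samples in both tissues. The fitted log2 values were 0.17 ± 0.24 in PB (adjusted p = 0.789) and -0.53 ± 0.24 in BM (adjusted p = 0.61), and the PB value was -0.74 with library size alone.

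Pkm encodes pyruvate kinase, which forms pyruvate and ATP in the last step, and 3′ counts do not separate its splice forms. It had 1507 and 1267 CPM in blood after PBS, 920 and 993 after LPS, and 1294 and 1504 in marrow after PBS against 1245 and 1263 after LPS. The LPS-primed PB samples were the lowest of all groups, and PBS-primed PB and BM overlapped. The batch 6 plates showed the same order in PB, with 1798 and 1704 CPM against 989 and 780. The fitted log2 value in PB was nevertheless 0.38 ± 0.21 (adjusted p = 0.391) after TMM and -0.54 with library size alone, so no direction can be given for Pkm or Aldoa in PB.

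Gapdh encodes the dehydrogenase that oxidises glyceraldehyde phosphate and yields NADH. It had 458 and 354 CPM in blood after PBS, 373 and 314 after LPS, and 437 and 676 in marrow after PBS against 531 and 484 after LPS. PBS-primed PB overlapped both LPS-primed PB and PBS-primed BM. The fitted log2 value was 0.66 ± 0.30 upon LPS in PB (adjusted p = 0.299) and -0.98 ± 0.30 for PBS-primed PB against BM (adjusted p = 0.147), where DESeq2 gave -0.93 (adjusted p = 0.0375). In batch 6 Gapdh stood at 92.0 and 140 CPM in PBS-primed PB and 298 and 209 CPM in LPS-primed PB, and at 260 to 493 CPM in BM. There the groups did not overlap in PB, unlike in the labelled samples.

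Pgk1 encodes phosphoglycerate kinase, which makes ATP from bisphosphoglycerate, and Pgam1 the mutase that acts next. Both were read at low levels. Pgk1 had 3.97 and 12.03 CPM in blood after PBS, 8.28 and 6.12 after LPS, and 27.3 and 14.7 in marrow after PBS against 24.4 and 16.3 after LPS, so that BM samples were above PB samples. Its log2 value for PBS-primed PB against BM was -1.91 ± 1.51 (adjusted p = 0.56). Pgam1 had 0.198 and 8.02 CPM in blood after PBS, 1.87 and 11.7 after LPS, and 7.60 and 6.58 in marrow after PBS against 5.93 and 4.01 after LPS. In the PBS-primed PB sample with 26 Pgam1 UMIs, 1 cell held 88.5% of them. With standard errors of 1.45 to 3.14 on the log2 scale in the 4 comparisons, differences of these transcripts were not detectable at this depth. RefSeq names 3 pseudogenes each of Aldoa, Gapdh, Pgk1 and Ldha and 2 of Pgam1, near-identical copies that can take uniquely mapped reads away from the parent gene, so the levels of these 5 genes are uncertain, whereas none was named for Adpgk, Pkm and Tkt.

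Ldha encodes the subunit of lactate dehydrogenase that favours reduction of pyruvate to lactate. It had 151 and 406 CPM in blood after PBS, 251 and 197 after LPS, and 576 and 632 in marrow after PBS against 685 and 716 after LPS. All PB samples were below all BM samples, the PB groups overlapped, and LPS-primed BM was above PBS-primed BM. The batch 6 plates gave 147 to 365 CPM in PB and 376 to 918 CPM in BM, with LPS-primed BM again highest. PBS-primed PB against BM gave -1.65 ± 0.40 on the log2 scale (adjusted p = 0.0588), which missed the threshold of 0.05. DESeq2 gave -1.58 (adjusted p = 0.00252) on the same samples, and library size alone -1.11 (adjusted p = 0.169). The LPS effects were 0.60 ± 0.39 in PB (adjusted p = 0.469) and 0.03 ± 0.39 in BM (adjusted p = 1). Leaving out a sample moved the difference between PBS-primed PB and BM across the threshold, with -2.50 (adjusted p = 0.0142) without the second PBS-primed PB sample and -1.64 (adjusted p = 0.0161 and 0.0188) without either LPS-primed PB sample.

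Tkt encodes transketolase, the enzyme of the non-oxidative branch of the pentose phosphate pathway. It had 154 and 248 CPM in blood after PBS, 81.7 and 196 after LPS, and 968 and 891 in marrow after PBS against 829 and 798 after LPS. All PB samples were below all BM samples, and the PB groups overlapped. The means were 201 ± 66.3 and 139 ± 80.5 CPM in PBS- and LPS-primed PB and 930 ± 54.5 and 814 ± 22.4 CPM in PBS- and LPS-primed BM (SD, n = 2 each). PBS-primed PB had 6.64-fold less Tkt than PBS-primed BM (log2 difference -2.73 ± 0.43, adjusted p = 0.00628). Without the first PBS-primed PB sample the value was -2.39 (adjusted p = 0.0975). The LPS effects were 0.40 ± 0.40 in PB (adjusted p = 0.678) and -0.38 ± 0.40 in BM (adjusted p = 0.934). Batch 6 plates had 114 to 241 CPM in PB and 402 to 878 CPM in BM, again without overlap. Over 500 CPM stood 10 of 90 and 12 of 86 cells of PBS-primed PB and 34 of 83 and 47 of 92 cells of PBS-primed BM. The gene overlaps AC154646.1 in the mm9 annotation, and the strand setting of the counting is not given in the sources used here.

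**Figure D3:**
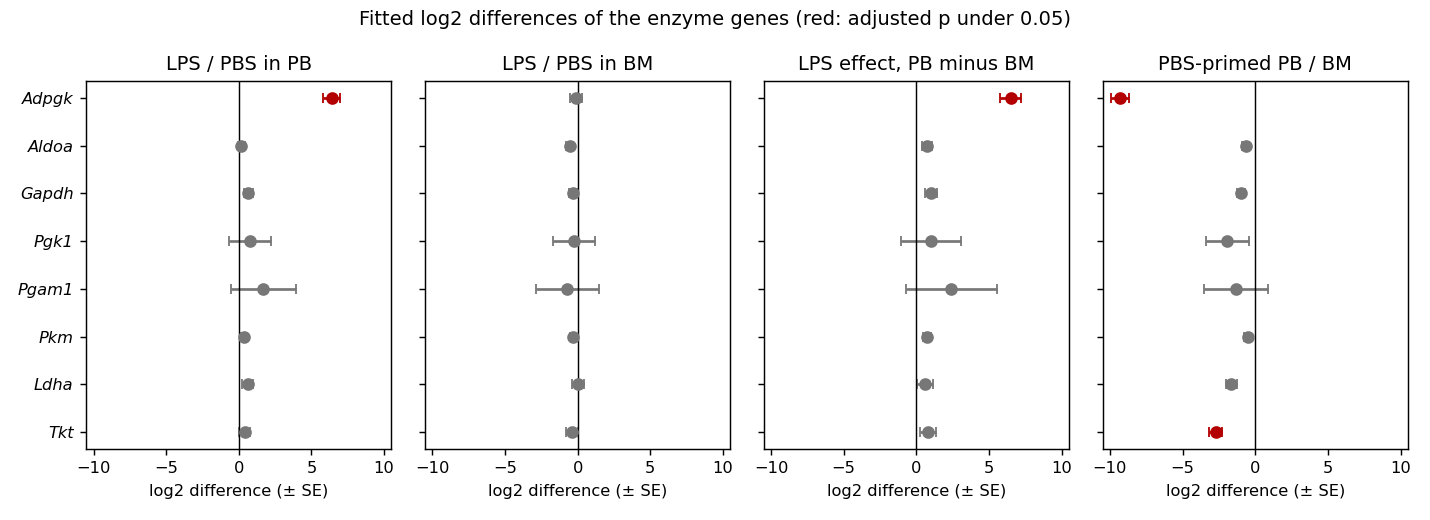
Fitted log2 differences (horizontal axis, bars are SE) of the 8 enzyme genes in the 4 comparisons, with 2 samples per group and red for an adjusted p under 0.05. Adpgk passed upon LPS in PB, in the difference of LPS effects and between PBS-primed PB and BM, and Tkt passed in the last of these.

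Adding the batch 6 plates as units, with batch as a term, gave more calls among the 8 genes and among all genes, but plates of a group may hold cells of the same mouse, so these p-values may be too small. In this fit of 8799 genes, 5 of the 8 were lower in PBS-primed PB than in BM, where 3.75% of all genes passed in that direction. They were Adpgk (-7.44 on the log2 scale, adjusted p = 7.2e-11), Tkt (-2.61, adjusted p = 8.47e-06), Gapdh (-1.42, adjusted p = 0.00395), Ldha (-1.32, adjusted p = 0.00386) and Aldoa (-0.77, adjusted p = 0.0398). Upon LPS in PB, 3 of the 8 were higher, where 6.39% of all genes passed in that direction. These were Adpgk (4.64, adjusted p = 5.91e-08), Gapdh (1.34, adjusted p = 0.0077) and Tkt (1.10, adjusted p = 0.049). In BM none of the 8 passed in this fit. Without cells carrying markers of other cell types, the same 5 genes were lower in PBS-primed PB than in BM (3.69% of 8521 genes), with Aldoa at -0.79 (adjusted p = 0.0459). Upon LPS in PB, Adpgk (4.83, adjusted p = 1.84e-08) and Gapdh (1.29, adjusted p = 0.0113) remained higher (6.2% of genes), and Tkt was 1.06 (adjusted p = 0.0557). Gapdh and Tkt in PB were called only once batch 6 was included, and their values with library size alone in the labelled samples were -0.25 and -0.54.

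**Figure D4:**
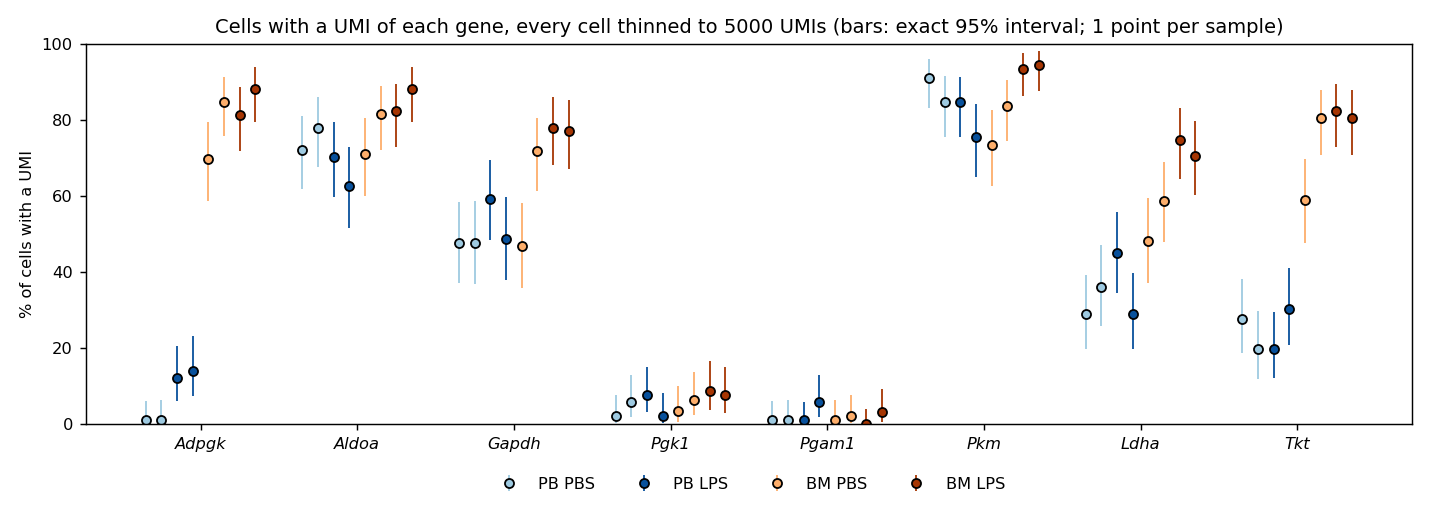
Percent of cells with at least 1 UMI of each enzyme gene (vertical axis) after thinning every cell to 5000 UMIs, with 1 point per labelled sample coloured by group and exact 95% binomial intervals as bars. Adpgk ran from 1.11% in PBS-primed PB to 88.0% in LPS-primed BM, and Pgk1 and Pgam1 were below 10% in every sample.

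The share of cells with a transcript followed the same order for Adpgk. At 5000 UMIs per cell, Adpgk was found in 1.11% (exact Clopper-Pearson 95% interval 0.0281 to 6.04) and 1.16% (0.0294 to 6.31) of PBS-primed PB cells. It was found in 12.1% (6.19 to 20.6) and 14.0% (7.42 to 23.1) of LPS-primed PB cells, 69.9% (58.8 to 79.5) and 84.8% (75.8 to 91.4) of PBS-primed BM cells, and 81.3% (71.8 to 88.7) and 88.0% (79.6 to 93.9) of LPS-primed BM cells. The interval of the second PBS-primed PB sample (to 6.31) overlapped that of the first LPS-primed PB sample (from 6.19). All these intervals cover counting error only. Unthinned, the shares were 4.44 and 6.98% in PBS-primed PB, 36.3 and 44.2% in LPS-primed PB and 96.4 to 100% in BM. The batch 6 plates had higher shares in PB, at 5000 UMIs 8.0 and 6.0% after PBS and 22.1 and 33.0% after LPS. Unthinned, these plates reached 46.6 and 36.9% after PBS and 80.0 and 91.2% after LPS. Tkt was found at 5000 UMIs in 27.8% (18.9 to 38.2) and 19.8% (11.96 to 29.8) of PBS-primed PB cells and in 59.0% (47.7 to 69.7) and 80.4% (70.9 to 88.0) of PBS-primed BM cells. Ldha reached 28.9 and 36.1% in PBS-primed PB and 74.7 and 70.7% in LPS-primed BM. Pkm was found in 73.5 to 94.6% of cells in every sample, with no order between PB and BM.

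Across the 8 samples the members did not share a single profile. The correlation of standardised log2 CPM between members was highest for Pgk1 with Ldha (0.93) and Adpgk with Ldha (0.91) and lowest for Gapdh with Pgam1 (0.28). These values describe 8 samples in 4 groups and carry no p. Among 2265 other genes with at least 50 CPM on average, the mean profile of the 8 genes was most like those of Actg1 (r = 0.976), a cytoplasmic actin, Arhgdib (0.972), Ly6g (0.968), a neutrophil surface antigen, Lyz2 (0.968), lysozyme, and Gpi1 (0.967), glucose phosphate isomerase. Adpgk was most like Anxa1 (0.993), Cd177 (0.990), Arpc5 (0.988), Itgb2l (0.988) and Ltf (0.987).

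Other genes of sugar metabolism were taken from a list. Of 70 listed genes, 62 were in the table and 49 were tested. Upon LPS in PB 1 was higher and none lower, in BM none passed, in the difference of effects 1 was lower, and in PBS-primed PB against BM 3 were lower and none higher. Over all genes 3.94, 0.0708, 1.5 and 2.61% passed in these comparisons. The median log2 values of the 49 genes were -0.01, 0.18, 0.28 and -0.32 in these comparisons, beside -0.11, 0.00, -0.17 and 0.15 over all genes. By sublist, the lower genes in PBS-primed PB were 1 of 8 of upper glycolysis, 1 of 7 of the pentose phosphate pathway and 1 of 9 from pyruvate to mitochondria, and none of 5 of uptake and lactate export, of 2 of lower glycolysis, of 8 of glycogen metabolism or of 10 regulators. Eno1, Eno2, Pgk2, Pgam2, G6pd2, Tktl2, Shpk and Pdp1 were not analysed here.

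**Figure D5:**
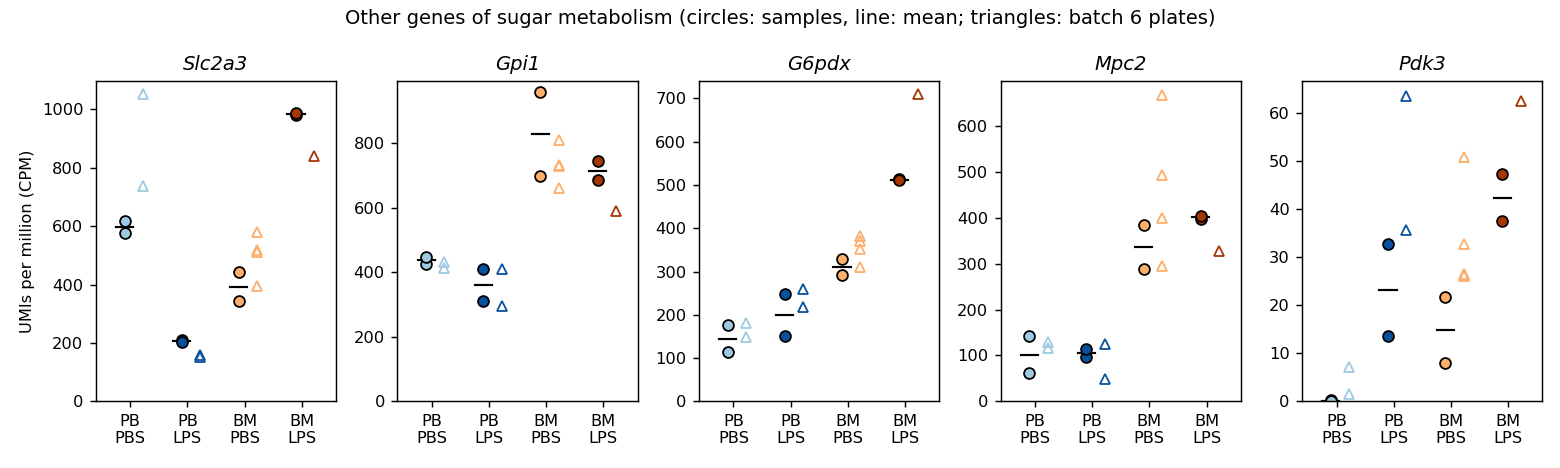
CPM (vertical axis) by group of the 5 other genes that passed in a comparison, with 1 circle per labelled sample, a line at the mean and 1 triangle per batch 6 plate. Slc2a3 was highest in LPS-primed BM among the labelled samples and lowest in LPS-primed PB, and Gpi1, G6pdx and Mpc2 were lower in PB than in PBS-primed BM.

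Slc2a3 encodes the glucose transporter GLUT3. It had 575 and 616 CPM in blood after PBS, 211 and 203 after LPS, and 343 and 442 in marrow after PBS against 982 and 989 after LPS. Its LPS effect was -0.61 ± 0.26 in PB (adjusted p = 0.265) and 1.14 ± 0.26 in BM (adjusted p = 0.239) on the log2 scale. Neither passed alone, whereas the difference of the effects was -1.75 ± 0.36 (adjusted p = 0.0406). With library size alone the PB effect was -1.53 (adjusted p = 0.00724) and the BM effect 1.33 (adjusted p = 0.128). The CPM moved in opposite directions with no overlap, and did so in batch 6 too, where PB plates had 1052 and 738 CPM after PBS and 153 and 158 after LPS, and BM plates 396 to 579 CPM after PBS and 839 after LPS. The call for the difference of the effects was lost without 7 of the 8 samples in turn (-1.97 to -1.55, highest adjusted p = 0.212).

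Gpi1, which converts glucose phosphate to fructose phosphate, had 427 and 448 CPM in PBS-primed PB and 698 and 960 in PBS-primed BM (log2 difference -1.45 ± 0.28, adjusted p = 0.0209). G6pdx is the first and NADPH-forming enzyme of the pentose phosphate pathway. It had 176 and 113 CPM in PBS-primed PB and 291 and 330 in PBS-primed BM (-1.62 ± 0.37, adjusted p = 0.046). Upon LPS, G6pdx was 1.39 ± 0.37 in PB (adjusted p = 0.0661) and 0.53 ± 0.36 in BM (adjusted p = 0.774). The PB value was 0.47 (adjusted p = 0.455) with library size alone and 1.47 (adjusted p = 0.000286) on plates of both batches. Mpc2, a subunit of the mitochondrial pyruvate carrier, had 142 and 62.3 CPM in PBS-primed PB and 288 and 384 in PBS-primed BM (-2.23 ± 0.44, adjusted p = 0.0206). No PB sample overlapped the BM samples for these 3 genes. With library size alone the adjusted p-values were 0.102, 0.137 and 0.0508, and the calls were lost without 3, 6 and 2 of the 8 samples in turn. Without the cells carrying markers of other cell types, G6pdx was -1.32 (adjusted p = 0.0846) and did not pass, while Gpi1 and Mpc2 did. The highest adjusted p with a sample left out was 0.159 for Gpi1, 0.283 for G6pdx and 0.129 for Mpc2.

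Pdk3, a kinase that inhibits pyruvate dehydrogenase, had 1 and 0 UMIs in PBS-primed PB and 13.6 and 32.8 CPM in LPS-primed PB (adjusted p = 0.0284). From summed UMIs, 1 of 8282945 against 280 of 12288402, the ratio was 189 with a counting interval of 33.6 to 7481. That interval leaves out the spread between cells and samples. The batch 6 plates gave a ratio of 11.3 (8.38 to 15.6, counting error only), from 1.53 and 7.13 CPM after PBS and 63.4 and 35.7 CPM after LPS, which lies below that interval. It had 21.7 and 7.89 CPM in PBS-primed BM and 47.2 and 37.6 in LPS-primed BM. The call was lost without 5 of the 8 samples in turn (highest adjusted p = 0.162). The more abundant pathway genes with no call were Taldo1, the transaldolase, with 2666 and 2707 CPM in PBS-primed PB and 1107 and 1055 in LPS-primed PB, and Pygl, a glycogen phosphorylase, with 1181 and 1084 CPM against 543 and 652. Their fitted values upon LPS in PB were -0.40 ± 0.20 (adjusted p = 0.332) and -0.01 ± 0.23 (adjusted p = 1). With library size alone both passed as lower (-1.32 and -0.93). Taldo1 also passed as lower on plates of both batches (-0.81, adjusted p = 0.0162) and on batch 6 alone (-1.17, adjusted p = 0.0291). Pygl was 0.40 (adjusted p = 0.328) and 0.90 (adjusted p = 0.177) in the same fits. Slc2a1, the glucose transporter GLUT1, had 62.9 and 50.3 CPM in PBS-primed PB and 122 and 135 in LPS-primed PB (2.10 ± 0.58, adjusted p = 0.0819).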

How the data were processed

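SCRB-seq UMIs were measured in 8 labelled samples (2 per group) and in cells of a second batch that carry a group only. Per the labels, the authors trimmed reads with Cutadapt 1.15, aligned them to mm9 with STAR 2.6.0a, removed duplicate UMIs and counted them per gene with HTSeq 0.11.2, and the deposited counts are raw and not divided by transcript length. The spike-in (ERCC) fraction per cell was deposited by the authors as given, with a denominator not given in the sources used here. The authors' cluster labels and barcode list were not used.

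UMI counts were added up within each sample. Genes seen in at least 10 cells (9919 of 10970) that passed filterByExpr were fitted in 1 edgeR 4.0.16 quasi-likelihood model (R 4.3.3, TMM, 4 group means), with Benjamini-Hochberg adjustment and a threshold of 0.05. All adjusted p-values given are from this edgeR test unless another tool is named. The study's own test takes cells as replicates and was replaced by sample sums. No 2 cells had the same name or identical counts among 1421, and replicate samples differed beyond counting noise. Alternatives were library size alone, no filter, DESeq2 1.42.0, limma 3.58.1 on mean cell CPM with a pseudocount of 1, thinning to 5000 UMIs, plates of both batches, the replicate block and leaving out each sample. Plates of both batches here means the labelled samples together with the batch 6 plates. Leaving out cells with over 500 CPM of markers of other cell types (labelled samples, or plates of both batches) and batch 6 alone were chosen after seeing the data. The scripts were tested on simulated counts.

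The 8 genes, the gene lists and the tests were chosen with earlier results of these data known. The genes named are the 8 members, other pathway genes past the threshold, up to 4 genes of the highest mean CPM per sublist, the 5 genes with the most similar profile (Pearson correlation of TMM-scaled log2 CPM over 8 samples) to the mean of the 8, and markers that move with a result. The same measure for Adpgk alone was added after its values were seen. The one for Tkt is not reported here.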

Additional observations from a re-analysis of the deposited data

Results flagged for a closer look

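Adpgk stood out because its LPS effect differed between tissues in a test of the difference itself. The effect in PB exceeded that in BM by 6.49 on the log2 scale (edgeR adjusted p = 0.00069), with higher CPM in 2 of 2 LPS-primed PB samples than in either PBS-primed PB sample and overlapping BM samples. Over all alternatives the difference ran from 3.55, on the batch 6 plates alone, to 7.83, and its highest adjusted p was 0.0405.

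Slc2a3, the GLUT3 gene, stood out for the opposite difference. The effect in PB minus that in BM was -1.75 on the log2 scale (edgeR adjusted p = 0.0406), and its CPM fell in both LPS-primed PB samples and was higher in both LPS-primed BM samples. It was -2.86 with library size alone and -2.11 on the batch 6 plates alone, and leaving out samples in turn lost the call 7 of 8 times.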

How the results depend on the processing

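Adpgk kept its direction and its call under every alternative run in the 3 comparisons where it passed, at 3.75 to 7.73 upon LPS in PB, -10.65 to -6.63 between PBS-primed PB and BM and 3.55 to 7.83 for the difference of effects. Tkt between PBS-primed PB and BM ran from -3.09 to -1.91, and its call was lost without the first PBS-primed PB sample alone. Of the log2 values of single genes, 497 kept direction and side of the threshold, 18 passed only under an alternative, 1 passed no longer and 52 changed sign, and none of the 52 passed under either setting. The cause was not tested. Of 64 shares of cells, 55 moved without thinning. With 2 samples per group and a common dispersion of 1.06, small differences were not detectable.

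Upon LPS in PB, library size alone gave Aldoa -0.74, Gapdh -0.25, Pgk1 -0.15, Pkm -0.54, Ldha -0.32 and Tkt -0.54, and limma with cells weighted equally gave -0.51, -0.21, -0.77, -0.41, -0.43 and -0.37. In BM, Adpgk was 0.09 with library size alone, 0.25 thinned, 0.50 by limma, 0.17 on plates of both batches, 0.16 on these without cells carrying other markers and 0.20 on batch 6 alone. Limma in BM gave Aldoa 0.03, Gapdh 0.10, Pgk1 0.30, Pkm 0.26 and Tkt 0.13, DESeq2 gave Ldha -0.01, and batch 6 alone gave Aldoa 0.07. For the difference of effects, library size alone gave Aldoa -0.40, Gapdh -0.12, Pgk1 -0.11, Pkm -0.38, Ldha -0.53 and Tkt -0.35, and limma gave -0.54, -0.30, -1.07, -0.68, -1.34 and -0.51. Ldha was -0.60 thinned and -0.36 on batch 6 alone. Between PBS-primed PB and BM, limma gave Aldoa 0.14 and Pkm 0.25.

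Leaving out each sample in turn moved the LPS effect in PB of Ldha from -0.01 to 1.43, of Pgam1 from -0.27 to 5.84 and of Tkt from -0.46 to 0.89. In BM it moved Adpgk from -0.30 to 0.14, Gapdh from -0.63 to 0.06, Ldha from -0.07 to 0.12 and Pgk1 from -0.59 to 0.25, and the difference of effects of Ldha from -0.02 to 1.41 and of Tkt from -0.06 to 1.29.

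Upon LPS in PB, 334 genes passed, against 1057 by DESeq2, 815 on plates of both batches, 626 on batch 6 alone and 146 to 400 with 1 sample left out. Of the 8 enzyme genes 3 passed, in place of 1, on plates of both batches and on batch 6 alone, and 2 on plates of both batches without cells carrying other markers. Of the other pathway genes 1 passed, against 5 with library size alone, 4 by DESeq2, 5 on plates of both batches and 7 on batch 6 alone. In BM 6 genes passed, against 10 with library size alone, 196 by DESeq2, 23 thinned, 39 on plates of both batches, 31 on batch 6 alone and 2 to 28 with 1 sample left out. For the difference of effects 127 passed, against 64 with library size alone, 500 by DESeq2, 25 by limma, 295 on plates of both batches, 197 on batch 6 alone and 80 to 168 with 1 sample left out. Between PBS-primed PB and BM 221 passed, against 962 by DESeq2, 512 by limma, 709 on plates of both batches, 464 on batch 6 alone and 108 to 342 with 1 sample left out. Of the 8 enzyme genes 4 passed there by DESeq2, 5 on plates of both batches and 1 to 3 with 1 sample left out, in place of 2, and of the other pathway genes 3 passed, against 1 with library size alone, 10 by DESeq2, 8 on plates of both batches, 6 on batch 6 alone and 2 without cells carrying other markers. On plates of both batches without such cells, 756, 33, 214 and 585 genes passed in the 4 comparisons in the order above. In the last, 5 of the 8 enzyme genes passed. The other pathway gene that passed there with library size alone was Slc2a6, of uptake and lactate export, not 1 of the 3. Slc2a6 was higher in PB, at 2.11 (adjusted p = 0.0191) with library size alone and 1.59 (adjusted p = 0.0756) in the main fit. DESeq2 gave 1.63 (adjusted p = 0.00404), plates of both batches 1.46 (adjusted p = 0.00489) and batch 6 alone 1.30 (adjusted p = 0.165).

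Samples with the same replicate number did not deviate together (correlations of -0.027 to 0.005). The labels do not say whether the numbers pair samples. With 2 samples per group that differ beyond counting noise, these correlations cannot decide it. With the replicate block, 374, 13, 154 and 255 genes and 1, 0, 1 and 3 of the 8 enzyme genes passed in the 4 comparisons in the order above, the third being Ldha (-1.71, adjusted p = 0.0219).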
